A study of Mus musculus with 10 samples.

Results

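The genes described here are 44 genes of the cell division cycle, read from cheek skin of C57BL/6 mice. They were taken by gene symbol from the deposited table of 18994 genes, and all 44 were found in it. Of these, 27 act in mitosis or build the spindle and 17 act in DNA replication or the entry into it, and both sets were treated apart. The skin came from 10 mice of 6 to 8 weeks whose cheek had been shaved 3 days earlier. In 5 mice the right cheek received MMP9 into the dermis, 1 µg in 5 µL. MMP9 is matrix metalloproteinase 9, an enzyme that cells secrete and that cleaves denatured and basement membrane collagen. The other 5 received the same volume of vehicle, and the tissue of both groups was taken 4 hours after injection. The strain, the shaving and the injection itself were thus common to both groups, no uninjected skin was included, and the sex of the mice and the make-up of the vehicle are left unsaid in the labels. Oligo(dT)-selected RNA was sequenced as single reads of 50 bases.

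A cell that commits to division first makes the proteins of replication. The MCM helicase is loaded on origins by CDC6 and CDT1, is opened by the GINS complex, and is followed by polymerases that the ring-shaped clamp PCNA holds on DNA, while ribonucleotide reductase and thymidylate synthase supply deoxynucleotides. After S phase the same cell makes cyclin B, the kinases and motors of the spindle, and the anaphase-promoting complex machinery that later destroys cyclin B. In skin the cells that divide are mostly basal keratinocytes, the matrix cells of growing hair follicles and the outer cells of sebaceous glands. Transcripts of replication are known to be highest at G1/S and those of mitosis in G2 and M, so both sets are read out of the same dividing cells at different moments.

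The 2 sets also differ in the letters of their promoters. Genes of the late wave are known to carry the cell cycle homology region (CHR), a place where the MuvB complex binds, often beside CCAAT boxes, whereas genes of the early wave are known for E2F sites. Promoter windows from 250 bases before to 50 after the annotated start (RefSeq, GRCm38.p6) were found for 37 of the 44 genes, 23 of mitosis and 14 of replication. The letters TTTGAA, searched on both strands as the CHR, were present in 18 of 23 mitosis genes and in 1 of 14 replication genes (Mcm2), against 20.2% of all 27025 genes with a window. The E2F letters TTTCCCGC, TTTCGCGC, TTTGCCGC or TTTGGCGC, on either strand, were present in 1 of 23 mitosis genes (Cdk1) and in 7 of 14 replication genes (Cdc6, Cdt1, Mcm3, Mcm5, Mcm6, Mcm7 and Uhrf1), against 2.60% of all genes. CCAAT was present in 21 and 9 of them, against 41.1% of all genes. TTTGAA lay between 60 bases before and 50 bases after the start in 17 of its 18 mitosis genes, a range chosen after the positions were seen. In 11 of them it lay after the start and in the other 6 before it, and Mki67 has it only farther before the start. A match of letters is a description and not a bound site.

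A set of 9 stretches is shown, each the 160 bases before the start, 5′ to 3′ on the gene's strand, with the CHR and E2F letters in capitals. They are those of Mki67 at chr7:135716380-135716539 (minus strand), Top2a at chr11:99024190-99024349 (minus), Cdk1 at chr10:69352913-69353072 (minus), Cdc20 at chr4:118437344-118437503 (minus), Ube2c at chr2:164769769-164769928 (plus), Kif11 at chr19:37376222-37376381 (plus), Mcm5 at chr8:75109349-75109508 (plus), Mcm6 at chr1:128359706-128359865 (minus) and Pcna at chr2:132253181-132253340 (minus). The mitosis genes Mki67, Top2a, Cdc20, Ube2c and Kif11 are shown because they hold the CHR letters before the start, Mki67 farther from it than the others, Mcm5 and Mcm6 because they hold E2F letters, and Cdk1 because it holds both. Pcna is shown because it was the most abundant of the 44 by TPM and its stretch holds neither. In Mcm5 and Mcm6 a pair of E2F matches on opposite strands overlaps, and gives 1 longer run of capitals.
Mki67: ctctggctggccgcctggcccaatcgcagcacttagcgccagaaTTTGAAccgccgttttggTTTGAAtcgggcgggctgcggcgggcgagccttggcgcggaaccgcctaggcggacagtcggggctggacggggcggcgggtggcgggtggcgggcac
Top2a: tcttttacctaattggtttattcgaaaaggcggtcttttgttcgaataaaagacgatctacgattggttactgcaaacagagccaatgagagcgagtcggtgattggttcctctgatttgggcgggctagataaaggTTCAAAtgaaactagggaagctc
Cdk1: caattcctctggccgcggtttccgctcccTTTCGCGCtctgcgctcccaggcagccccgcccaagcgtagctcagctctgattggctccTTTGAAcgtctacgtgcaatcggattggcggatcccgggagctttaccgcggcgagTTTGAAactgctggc
Cdc20: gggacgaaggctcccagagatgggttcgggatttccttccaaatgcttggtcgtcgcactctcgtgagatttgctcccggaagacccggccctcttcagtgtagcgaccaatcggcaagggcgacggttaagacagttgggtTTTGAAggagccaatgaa
Ube2c: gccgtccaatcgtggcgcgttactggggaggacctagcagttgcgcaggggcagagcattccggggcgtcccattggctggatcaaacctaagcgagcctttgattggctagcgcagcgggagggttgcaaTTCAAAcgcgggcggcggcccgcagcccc
Kif11: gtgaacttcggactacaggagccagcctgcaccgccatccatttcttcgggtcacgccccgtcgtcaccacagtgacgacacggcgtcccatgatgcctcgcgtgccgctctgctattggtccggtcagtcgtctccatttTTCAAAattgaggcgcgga
Mcm5: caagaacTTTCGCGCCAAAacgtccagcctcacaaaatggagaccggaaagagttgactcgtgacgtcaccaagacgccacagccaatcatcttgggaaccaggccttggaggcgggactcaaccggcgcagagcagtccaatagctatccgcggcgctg
Mcm6: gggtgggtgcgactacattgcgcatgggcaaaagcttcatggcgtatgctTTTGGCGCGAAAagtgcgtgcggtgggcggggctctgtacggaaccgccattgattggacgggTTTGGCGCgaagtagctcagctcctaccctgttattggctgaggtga
Pcna: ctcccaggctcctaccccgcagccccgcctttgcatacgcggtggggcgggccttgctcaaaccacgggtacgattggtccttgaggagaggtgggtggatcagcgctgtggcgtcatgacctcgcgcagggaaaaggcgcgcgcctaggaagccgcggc

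The 10 libraries held between 17121541 and 19443099 estimated counts and between 17225 and 17553 genes with a count. All 44 genes had counts in every library, the lowest being 16 (Bub1 in MMP9 library 4), and all 44 passed the filter on low counts. Skin markers were present in both groups: the 7 basal epidermis genes (Krt14 and Krt5 the highest) summed to 6953 to 11000 CPM (estimated counts relative to library size, scaled between libraries) in vehicle and 6536 to 9406 CPM in MMP9. Skeletal muscle genes summed to 10550 to 21190 and 10730 to 19980 CPM, so muscle was part of the tissue in both groups. A group of 3 libraries stood apart from the rest. Vehicle library 2 and MMP9 library 1 were nearly free of hair keratin transcripts, with a hair score (mean log2 CPM of 22 hair shaft and inner root sheath genes, relative to the mean of all libraries) of -5.70 and -5.49 against -0.88 to 3.29 elsewhere. In MMP9 library 4 the 83 ribosomal protein genes held 12.2% of the counts, against 6.11 to 6.94% elsewhere, and longer transcripts were lower across the whole table: over 14750 genes, the rank correlation of a gene's deviation with the transcript length implied by its deposited values was -0.67 there, 0.42 in MMP9 library 1 and 0.06 to 0.16 in the other 8.

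All 27 mitosis genes had lower fitted levels in MMP9 than in vehicle, and 15 of the 17 replication genes had higher ones, but none of these differences passed the test. The log2 fold changes of the mitosis genes ran from -0.48 (Ube2c) to -0.07 (Ttk), with a median of -0.28. Those of the replication genes ran from -0.08 (Rrm2) to 0.37 (Ccne2), with a median of 0.13. Over all 15250 genes tested the median was 0.01, and 46.3% of genes were below 0 and 53.7% above. With edgeR's quasi-likelihood test, 0 of the 44 reached a Benjamini-Hochberg adjusted p under 0.05 (percent called over all genes: 0), with adjusted p between 0.981 and 0.993. At an unadjusted p under 0.05 there were 0 of 44 with edgeR, where all genes gave 3.19%, 0 with limma-voom (3.03% of all genes) and 1 with DESeq2 (3.27%). No gene of the 44 had all 5 MMP9 libraries above (0.426% of all genes) or below (0.138%) all 5 vehicle libraries. Most genes of a set vary together, as shown further down, so their shared sign is not a count of independent observations. In whole tissue, fewer dividing cells and less RNA per dividing cell cannot be told apart.

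**Figure D1:**
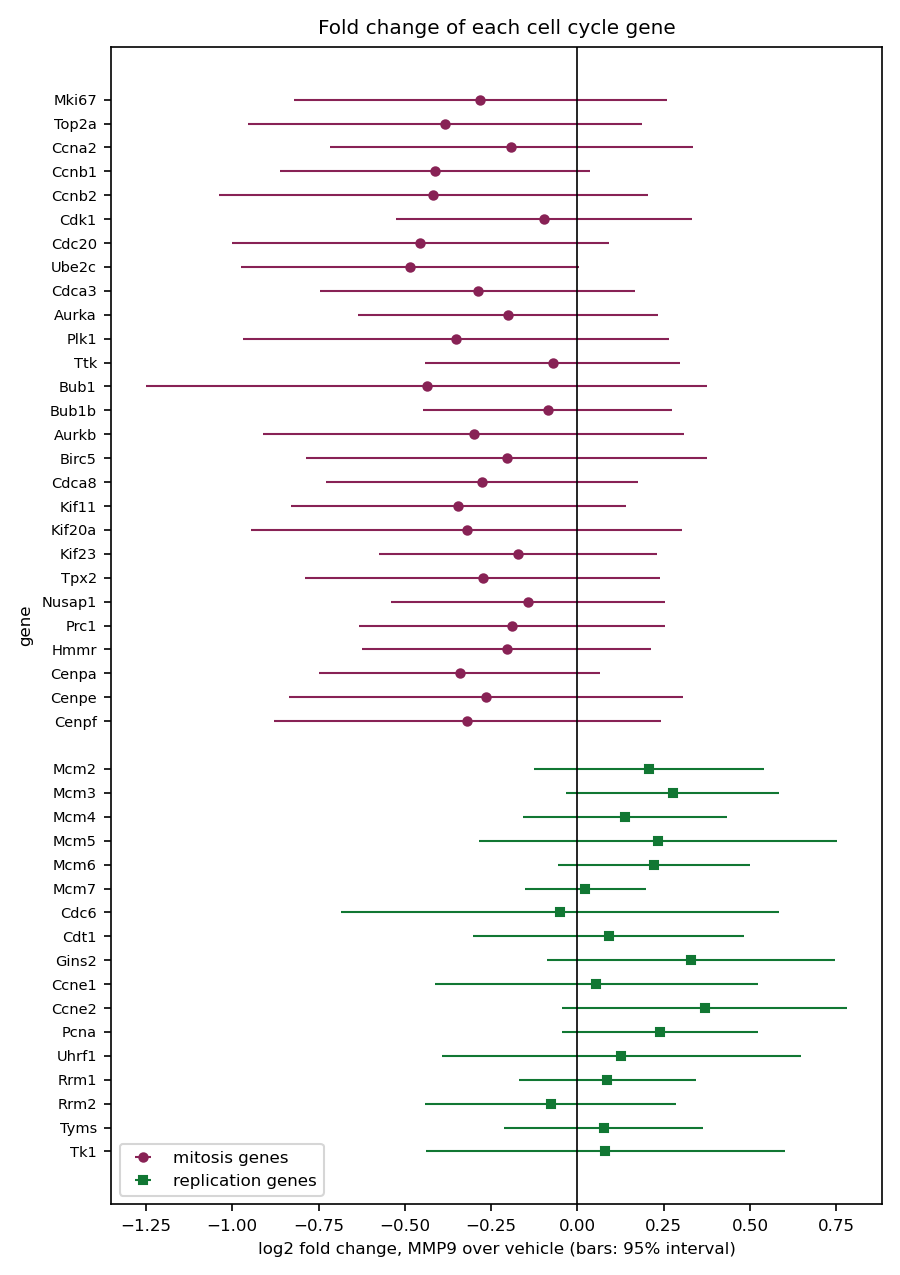
Log2 fold change of each of the 44 genes, MMP9 over vehicle (x axis), with its 95% interval from edgeR (n = 5 mice a group). The 27 mitosis genes lie left of 0 and 15 of 17 replication genes right of it, and every interval includes 0.

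Precision set what could be seen. Standard errors ran from 0.16 to 0.37 for mitosis genes and from 0.08 to 0.29 for replication genes on the log2 scale. The 95% interval lay within 1 of 0 for 24 of 27 mitosis genes and for 17 of 17 replication genes. Changes larger than 2-fold were thus outside the interval of most of these genes taken singly. The width differed between genes, from -0.15 to 0.20 for Mcm7 to -1.25 to 0.37 for Bub1. Of the 44 genes, 4 have named pseudogenes in RefSeq (Ccnb1, Ccnb2, Pcna and Tyms) and 13 overlap another annotated gene, among them Ccna2, Cdc20, Mcm7, Ccne2 and Tk1. Neither strand nor the handling of shared reads is stated in the labels or headers, so the counts of these genes are less certain.

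The general marks of dividing cells, Mki67 and Top2a, were lowest in MMP9 library 4 and highest in vehicle library 2. Mki67 (Entrez gene 17345), which encodes the surface protein that keeps mitotic chromosomes apart and is the usual stain for cycling cells, had 25.2, 54.9, 44.2, 34.1 and 46.9 CPM in vehicle libraries 1 to 5 and 49.8, 34.4, 28.9, 20.4 and 35.2 CPM in MMP9 libraries 1 to 5. The groups overlapped, with only MMP9 library 4 below all vehicle libraries. Mki67 had a fitted log2 fold change of -0.28 (SE 0.25) and 0.981 as its adjusted p in edgeR. Top2a, the topoisomerase that untangles replicated chromosomes, averaged 25.9 ± 7.98 CPM in the vehicle group and 19.8 ± 6.45 CPM in the MMP9 group (SD, n = 5), again with only MMP9 library 4, at 11.2 CPM, below all vehicle values. Both transcripts are long, with implied lengths of 9280 and 5169 bases, and their low values fell in the library where long transcripts were low throughout. Over the 27 mitosis genes the rank correlation of deviation with length was -0.38 in that library. Cdc20 (1735 bases) and Ccnb2 (1492 bases) were also lowest there, while Cenpa (1053 bases) was not. The rank correlation of log2 fold change with length was 0.20 for mitosis genes and -0.31 for 14750 genes of the table. The part that transcript length has in these values was not tested. Without that library the Mki67 log2 fold change was -0.152 and the Top2a log2 fold change -0.241. Without vehicle library 2 they were -0.155 and -0.237, and without MMP9 library 1 they were -0.468 and -0.57.

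Among the cyclins and their kinase, the cyclin B genes had the values farthest from 0, and these depended on vehicle library 2. Ccnb1 (Entrez gene 268697), the cyclin that drives entry into mitosis, had 7.09, 16.3, 12.4, 8.81 and 11.2 CPM in vehicle libraries 1 to 5 and 9.90, 7.53, 8.64, 7.55 and 8.31 CPM in MMP9 libraries 1 to 5. The MMP9 values were narrow and lay inside the vehicle range in CPM, whose lowest value was that of vehicle library 1. In TPM MMP9 library 4, at 3.65, lay below vehicle library 1, at 5.08. The fitted value of Ccnb1 was -0.41 (SE 0.20, log2), with 0.981 as adjusted p in edgeR. Ccnb2, a second B-type cyclin, had 7.41 ± 3.23 and 5.54 ± 1.35 CPM (SD, n = 5) and a log2 fold change of -0.42. Ccna2, the cyclin of S phase and G2, had 18.01 ± 7.15 and 15.8 ± 2.23 CPM and a value of -0.19. Cdk1, the kinase both types of cyclin activate, was close to even, at 9.49 ± 2.65 and 8.88 ± 1.16 CPM. Without vehicle library 2, the Ccnb1 log2 fold change was -0.236, the Ccnb2 log2 fold change -0.15, and those of Ccna2 and Cdk1 turned to 0.04 and 0.02.

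The 2 largest negative values of the 44 belonged to the machinery that ends mitosis by destroying proteins. Ube2c (Entrez gene 68612), the ubiquitin-conjugating enzyme of the anaphase-promoting complex, was the most abundant mitosis gene at a mean of 25.4 TPM (the authors' unit, which also corrects for transcript length). It had 9.70, 23.9, 15, 12.9 and 17.9 CPM in vehicle libraries 1 to 5 and 12.5, 11.2, 9.04, 9.98 and 14.2 CPM in MMP9 libraries 1 to 5. In CPM only MMP9 library 3 lay below all vehicle libraries, because vehicle library 1 was low as well. In TPM MMP9 library 4 was the lowest library, at 12.42. MMP9 library 3, at 17.90 TPM, lay just below vehicle library 1, at 17.91. The fitted difference of Ube2c was -0.48 (SE 0.22, log2), with an unadjusted p of 0.0523 and 0.981 after adjustment in edgeR, and over all alternatives it ran from -0.62 to -0.29, the latter without vehicle library 2. Cdc20, the activator that brings cyclin B to the complex, had 9.87 ± 3.51 and 7.19 ± 1.55 CPM (SD, n = 5) and a log2 fold change of -0.45. Cdca3 (Entrez gene 14793), which helps to trigger mitotic entry and is itself a substrate of the complex, had 7.43, 16.7, 12.9, 8.75 and 13.0 CPM in vehicle libraries and 11.1, 8.90, 8.19, 9.35 and 10.6 CPM in MMP9 libraries, in the order 1 to 5. All 5 MMP9 values of Cdca3 lay within the vehicle range in CPM. In TPM MMP9 library 4, at 7.08, lay below the vehicle minimum of 8.28.

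The 5 mitotic kinases and checkpoint genes had a median of -0.20, with values from -0.44 to -0.07. Plk1, a kinase that acts from centrosome maturation to cytokinesis, averaged 7.98 ± 3.19 CPM in vehicle mice and 6.24 ± 1.45 CPM in MMP9 mice (SD, n = 5), and Aurka, the spindle pole kinase, 6.51 ± 1.83 and 5.66 ± 0.684 CPM. Bub1, a checkpoint kinase at the kinetochore, was the least abundant of the mitosis genes by TPM and the most variable, with a highest value 4.68 times its lowest and a fitted value of -0.44 (SE 0.37), which was -0.146 without vehicle library 2. Its relative Bub1b had -0.09. Ttk, the kinase that starts checkpoint signalling, had the smallest difference, -0.07, and its sign turned without vehicle library 2, to 0.075. In MMP9 library 4 Ttk stood at 14.3 CPM, above every other MMP9 library. Within the set only Cenpa was likewise highest there in CPM among MMP9 libraries. In TPM that library was instead the lowest MMP9 library for both, at 5.48 for Ttk and 11.17 for Cenpa.

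The chromosomal passenger complex, which corrects chromosome attachment and guides cytokinesis, had 3 genes with values between -0.30 and -0.21. Birc5 (Entrez gene 11799), which encodes survivin, the subunit that brings the complex to centromeres, had 3.97, 12.2, 7.02, 6.61 and 9.82 CPM in vehicle libraries 1 to 5 and 8.24, 7.38, 6.25, 5.13 and 7.32 CPM in MMP9 libraries 1 to 5. Vehicle libraries held both its highest and its lowest value in CPM. In TPM MMP9 library 4, at 5.47, lay below vehicle library 1, at 5.83. The fitted value of Birc5, -0.21 (SE 0.26), went to 0.002 without vehicle library 2. Aurkb, the kinase of the complex, had -0.30 and Cdca8, its borealin subunit, -0.28.

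Spindle motors and microtubule proteins, 7 genes, had a median of -0.20. Prc1 (Entrez gene 233406), which bundles the microtubules of the anaphase midzone, had 11.3, 21.4, 16.0, 13.5 and 19 CPM in vehicle libraries 1 to 5 and 17.4, 15.9, 12.1, 9.77 and 16.0 CPM in MMP9 libraries 1 to 5. The groups overlapped, with MMP9 library 4 the lowest of the 10. Kif11, the motor that pushes spindle poles apart, had 11.04 ± 3.33 and 8.69 ± 1.75 CPM (SD, n = 5) and the largest value of the group, -0.35. The midzone motors Kif20a and Kif23 had -0.32 and -0.17, the spindle assembly factor Tpx2 -0.28, and the microtubule-binding Nusap1 and Hmmr -0.14 and -0.20.

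Centromere genes gave similar values. Cenpa (Entrez gene 12615), the histone H3 variant that marks centromeres, had 8.23, 14.1, 13.0, 9.74 and 11.6 CPM in vehicle libraries 1 to 5 and 8.13, 10, 6.25, 10.7 and 9.73 CPM in MMP9 libraries 1 to 5. In CPM MMP9 libraries 1 and 3 lay below all vehicle libraries, the first of them narrowly. In TPM it was MMP9 libraries 3 and 4, at 11.63 and 11.17, that lay below the vehicle minimum of 13.05. Cenpa had a fitted value of -0.34 (SE 0.18) and 0.981 as its adjusted p in edgeR. Cenpe, a kinetochore motor, and Cenpf, a large kinetochore protein, had -0.27 and -0.32, both lowest in MMP9 library 4 at 2.91 and 3.81 CPM.

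**Figure D2:**
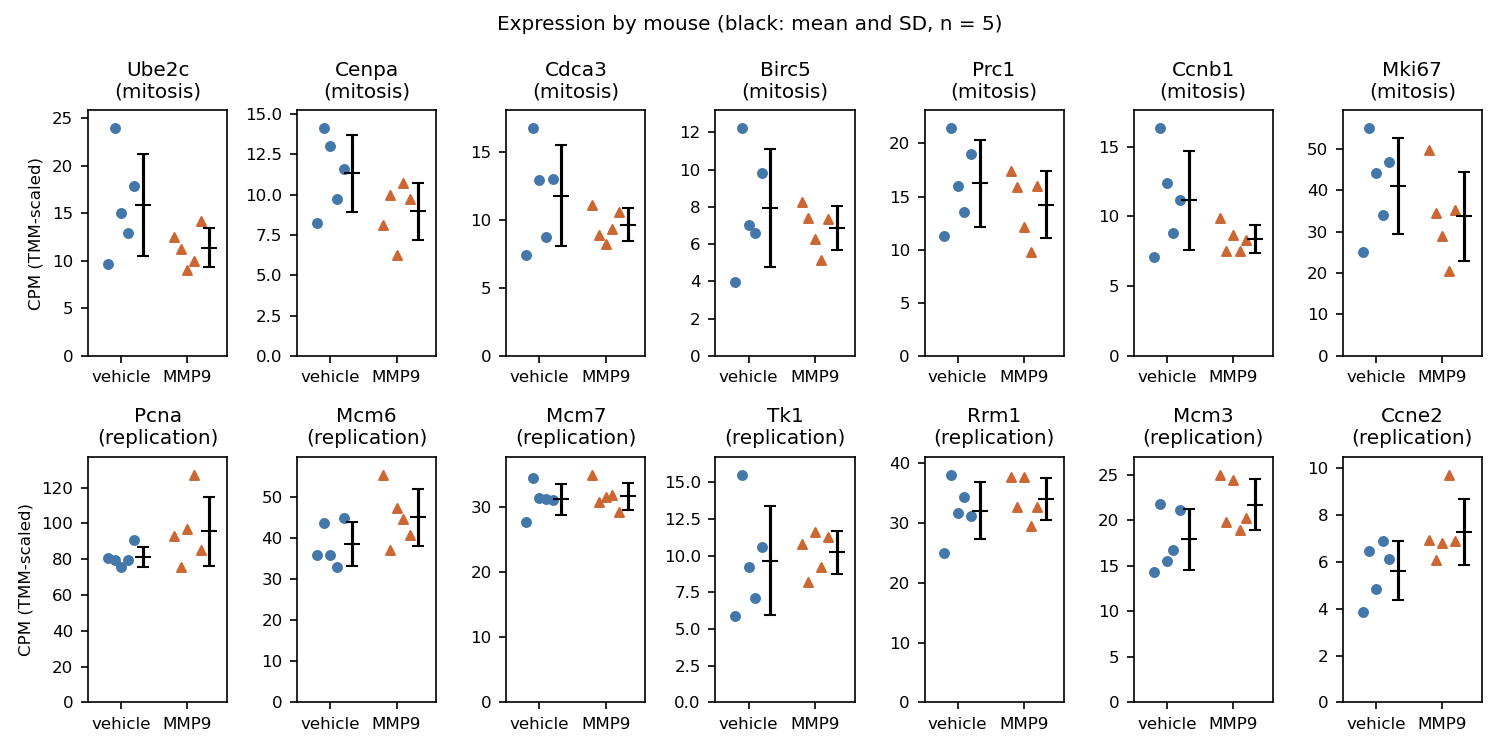
TMM-scaled CPM (y axis, from 0) of 14 genes in each of the 5 vehicle mice (circles) and 5 MMP9 mice (triangles), with mean and SD in black. The upper row holds mitosis genes and the lower row replication genes. The groups overlap in every panel, and vehicle values of mitosis genes are spread more widely than MMP9 values.

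The MCM helicase, the 6-subunit ring that unwinds DNA, had 6 of 6 positive values with a median of 0.22. Mcm6 (Entrez gene 17219) had 35.9, 43.8, 35.8, 32.9 and 44.9 CPM in vehicle libraries 1 to 5 and 55.4, 37.1, 47.3, 44.8 and 40.9 CPM in MMP9 libraries 1 to 5. In CPM MMP9 libraries 1 and 3 were above all vehicle libraries and the other 3 within their range. In TPM MMP9 library 4, at 16.3, was instead below the vehicle minimum of 17.89. That library was also below all vehicle libraries in TPM for every other MCM gene. Mcm3 (Entrez gene 17215) had 14.3, 21.8, 15.6, 16.8 and 21.2 CPM in vehicle and 25.0, 19.8, 24.5, 19 and 20.3 CPM in MMP9, in the order 1 to 5, and the same 2 MMP9 libraries were the highest. Mcm3 had a fitted log2 fold change of 0.28 (SE 0.14) and Mcm6 one of 0.22 (SE 0.13), and for both edgeR's adjusted p was 0.981. Mcm2, Mcm4 and Mcm5 had 0.21, 0.14 and 0.23. Mcm7 (Entrez gene 17220) was nearly even and in CPM also the least variable gene of the 44, with 27.8, 34.5, 31.5, 31.3 and 31.1 CPM in vehicle and 35, 30.8, 31.6, 31.9 and 29.3 CPM in MMP9. Its highest value was 1.26 times its lowest, and its fitted value was 0.02 (SE 0.08), with a negative sign on the log2 TPM scales (-0.04 on both) and without MMP9 library 1 or vehicle library 1.

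Genes that load and fire origins were mixed. Gins2, a subunit of the GINS complex, averaged 6.71 ± 1.67 CPM in vehicle mice and 8.44 ± 1.37 CPM in MMP9 mice (SD, n = 5), a fitted value of 0.33 (SE 0.19). In MMP9 library 4 it stood at 9.29 CPM, above the vehicle maximum of 8.95. In TPM that library was instead the lowest of the MMP9 group, at 10.27. The licensing factors Cdt1 and Cdc6 had 0.09 and -0.05, and Cdc6, at 0.968 TPM, was the least abundant of the 44. Of the cyclins that open S phase, Ccne2 (Entrez gene 12448) had 3.86, 6.44, 4.83, 6.88 and 6.11 CPM in vehicle libraries 1 to 5 and 6.94, 6.07, 6.80, 9.70 and 6.89 CPM in MMP9 libraries 1 to 5. MMP9 libraries 1, 4 and 5 lay above all vehicle libraries, although libraries 1 and 5 did so narrowly. In TPM, MMP9 library 4 stood at 3.55, below every other MMP9 library and within the vehicle range of 2.18 to 3.99. The MMP9 libraries above that range in TPM were 1 and 3, at 4.36 and 4.07. Ccne2 had the highest fitted value of the 44, 0.37 (SE 0.19), with 0.981 as adjusted p in edgeR, and its relative Ccne1 had 0.05.

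Pcna (Entrez gene 18538), the sliding clamp, stood far above the other genes at a mean of 117 TPM, followed among the 44 by Ube2c. It had 80.4, 79.5, 75.5, 79.3 and 90.5 CPM in vehicle libraries 1 to 5 and 93.1, 75.9, 96.6, 127 and 85.3 CPM in MMP9 libraries 1 to 5. MMP9 libraries 1, 3 and 4 lay above all vehicle libraries in CPM, and library 4, the one rich in short transcripts, was the highest by far. The transcript of Pcna has an implied length of 1211 bases. In TPM, MMP9 library 4 stood at 115, within the vehicle range of 103 to 127, and MMP9 libraries 1 and 3 lay above that range, at 137 and 139. Pcna had a fitted value of 0.24 (SE 0.13), with 0.981 as adjusted p in edgeR, and it was 0.11 without MMP9 library 4, with the part of transcript length not tested. Uhrf1, which carries DNA methylation over to the new strand, had 10.8 ± 3.96 and 11.8 ± 1.98 CPM (SD, n = 5) and a log2 fold change of 0.13.

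Genes of deoxynucleotide supply had values from -0.08 to 0.09. Rrm1 (Entrez gene 20133), the large subunit of ribonucleotide reductase, had 25.0, 38.0, 31.7, 34.3 and 31.2 CPM in vehicle libraries 1 to 5 and 37.6, 32.6, 37.7, 29.5 and 32.6 CPM in MMP9 libraries 1 to 5. All 5 MMP9 values lay within the vehicle range in CPM. In TPM MMP9 libraries 1 and 3, at 17.04 and 16.71, lay above the vehicle maximum of 16. MMP9 library 4, at 8.2 TPM, lay below the vehicle minimum of 10.27. Tk1 (Entrez gene 21877), the thymidine kinase of S phase, had 5.90, 15.5, 9.22, 7.10 and 10.6 CPM in vehicle and 10.8, 8.19, 11.6, 9.22 and 11.3 CPM in MMP9, likewise within the vehicle range in CPM. In TPM MMP9 library 4, at 8.34, lay narrowly below the vehicle minimum of 8.43. The small reductase subunit Rrm2, whose transcript accumulates in S phase, had -0.08, and the thymidylate synthase gene Tyms 0.08.

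**Figure D3:**
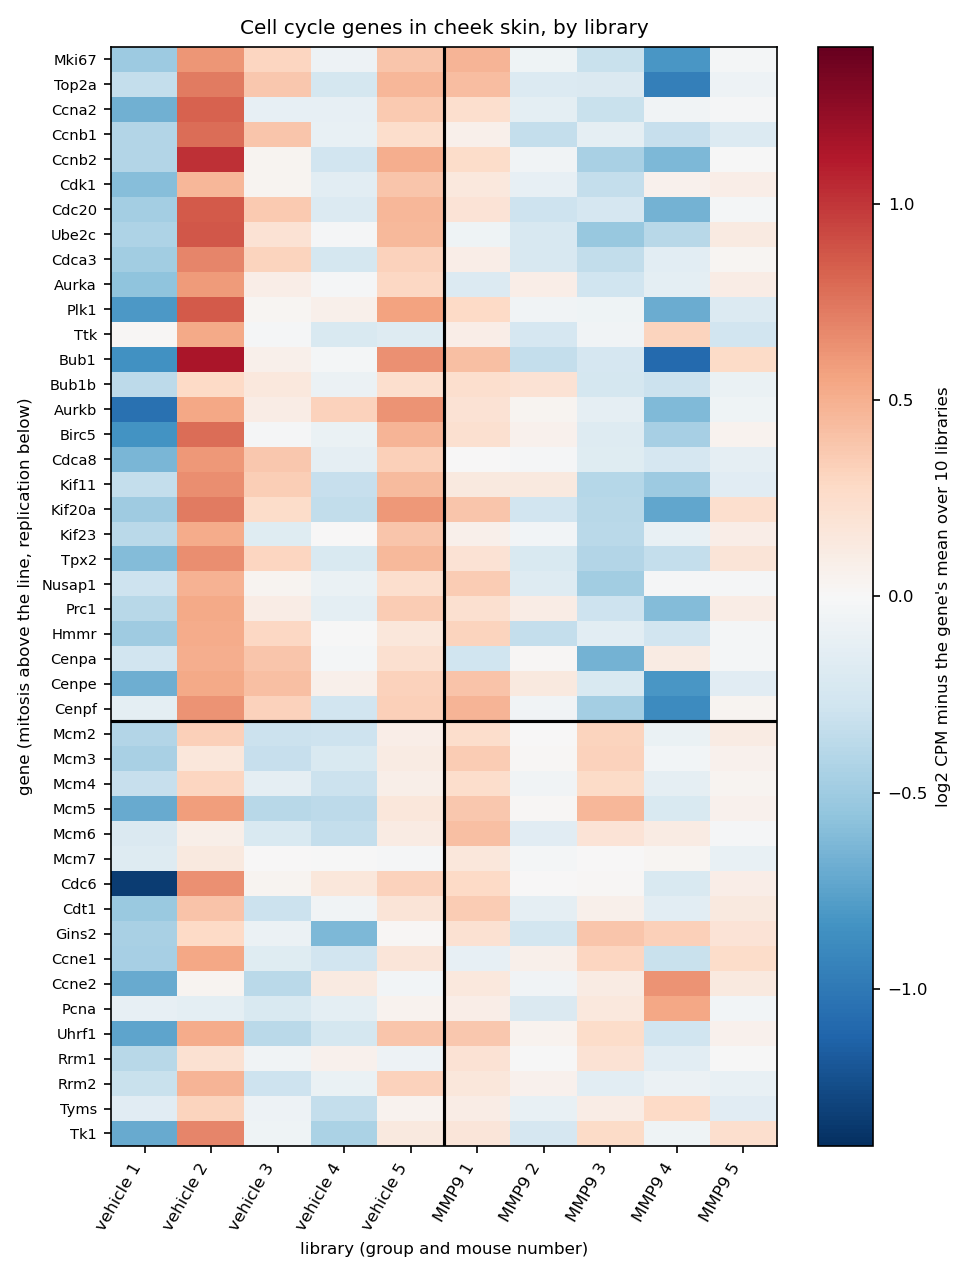
Log2 CPM of the 44 genes (rows) in the 10 libraries (columns), each gene relative to its own mean over the libraries. Most mitosis genes are high in vehicle library 2 and low in vehicle library 1, and MMP9 library 4 combines low Mki67, Top2a, Bub1, Cenpe and Cenpf with high Pcna and Ccne2.

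The 2 sets were compared within each library by a score, the mean over a set's genes of log2 CPM relative to the mean of the 10 libraries. The mitosis score was -0.49, 0.66, 0.18, -0.11 and 0.37 in vehicle libraries 1 to 5 and 0.20, -0.09, -0.30, -0.41 and -0.01 in MMP9 libraries 1 to 5. The vehicle mice alone thus spanned more than the MMP9 mice, with an SD of 0.44 against 0.24, and the difference between the group means, 0.12 against -0.12, was smaller than the vehicle SD. The replication score was -0.47, 0.32, -0.19, -0.20 and 0.12 in vehicle and 0.22, -0.06, 0.19, 0.01 and 0.05 in MMP9, and here too all MMP9 values fell within the vehicle range.

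The mitosis score minus the replication score was -0.02, 0.33, 0.38, 0.09 and 0.25 in vehicle libraries 1 to 5 and -0.02, -0.03, -0.49, -0.42 and -0.06 in MMP9 libraries 1 to 5. Its mean was 0.21 with an SD of 0.17 in vehicle and -0.21 with an SD of 0.23 in MMP9. The groups met at vehicle library 1 (-0.019) and MMP9 library 1 (-0.023), and on the log2(TPM + 0.1) scale these 2 libraries changed places (-0.025 and -0.024). The other 4 vehicle libraries lay between 0.09 and 0.38, while the low end was set by MMP9 libraries 3 and 4. No test was run on this difference, because the genes and the comparison were chosen with results of these data known. The median implied transcript length was 2939 bases for mitosis and 2892 for replication genes, but the longest were 11032 and 4566 bases. In MMP9 library 4 long mitosis genes such as Mki67 were low, and so were shorter ones such as Cdc20 (1735 bases). The part of transcript length in the score difference was not tested.

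**Figure D4:**
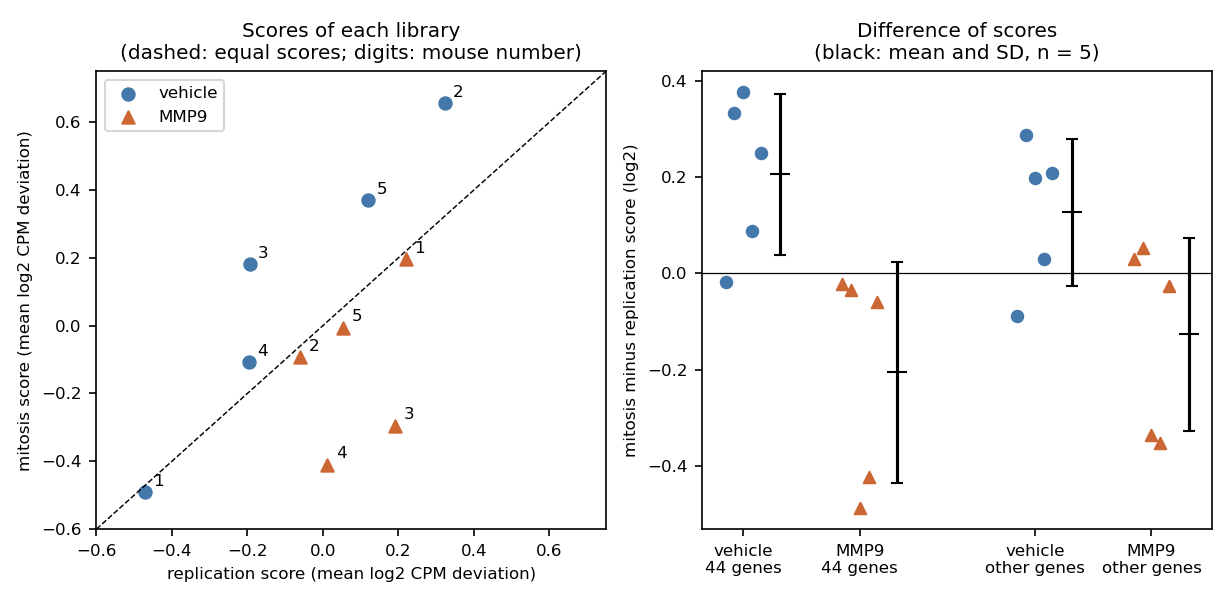
Left, mitosis score against replication score of each library, with mouse numbers and a dashed line of equal scores. Right, the difference of both scores (log2) for the 44 genes and for other cell cycle genes of the same 2 kinds, with mean and SD. With 1 exception vehicle libraries lie above the dashed line, and all MMP9 libraries lie on it or below.

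Other genes of the cell cycle were read from a list of 111 symbols, of which 110 were in the table and 109 were tested. None passed in edgeR (0 of 109), and at an unadjusted p under 0.05 there were 3 higher (2.07% of all genes) and 2 lower (1.12%). Of 43 further mitosis genes, 33 had negative values, with a median of -0.15. Of 29 further replication genes, 24 had positive values, with a median of 0.18. The median of the further mitosis genes went to 0.001 without vehicle library 2, while that of the further replication genes stayed between 0.12 and 0.24 without any 1 library. Their score difference, mitosis minus replication, was 0.13 with an SD of 0.15 in vehicle and -0.13 with an SD of 0.20 in MMP9, and these groups overlapped, with vehicle library 1 at -0.09 and MMP9 library 2 at 0.05.

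The single genes of that list with the smallest p did not follow their sets throughout. Pttg1, which encodes securin, the inhibitor of separase, is a mitosis gene but averaged 36.8 ± 2.30 CPM in vehicle mice and 44.8 ± 7.32 CPM in MMP9 mice (SD, n = 5), a log2 fold change of 0.28. Its highest value was 56.0 CPM in MMP9 library 4. In TPM that library stood at 88.78, within the vehicle range of 81.49 to 95.6. Aspm, a spindle pole protein, had 5.85 ± 1.5 and 4.03 ± 1.12 CPM and a value of -0.53. The primase gene Prim1 and the polymerase alpha gene Pola1, which together start new DNA strands, had 0.30 each, and the repressor gene E2f8 had -0.34. Prim1 was likewise highest in MMP9 library 4 in CPM, at 19.6. In TPM that library was the lowest MMP9 library for Prim1 and Pola1, at 14.49 and 1.92. Cdkn1a, which encodes the CDK inhibitor p21 and is induced by p53, was abundant and had 331 ± 26.8 and 286 ± 21.5 CPM, a fitted value of -0.21 (SE 0.10). For each of these 6 genes edgeR's adjusted p was 0.981.

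The regulators above both waves showed no shared direction. Foxm1 and Mybl2, activators of the mitosis genes, had fitted values of -0.20 (SE 0.30) and -0.29 (SE 0.27). E2f1, an activator of the replication genes, had 0.22 (SE 0.23). Ccnd1, the cyclin that growth signals induce in G1, and Cdkn1b, which encodes the inhibitor p27, were nearly even at 0.04 and 0.01 (SE 0.10 each). The groups of G1 cyclins and kinases (10 genes), CDK inhibitors (7 tested), pocket proteins and E2F (13) and MuvB, B-Myb and FoxM1 (7) had medians between -0.04 and 0.06.

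Across mice most genes of each set moved together. After subtracting group means, the median correlation over the 10 libraries was 0.82 for the 351 pairs of mitosis genes, 0.68 for the 136 pairs of replication genes and 0.65 for the 459 pairs that join a mitosis with a replication gene. The pairs share the same 10 libraries and their depth, so these values are a description only. Of the 27 mitosis genes, 26 were on median more alike other mitosis genes than replication genes, the exception being Ttk, and 15 of 17 replication genes were more alike their own set, the exceptions being Cdc6 and Rrm2. The count includes near ties such as Plk1 (0.840 against 0.839). It also includes Pcna, whose median correlation was 0.04 with replication and -0.22 with mitosis genes, and Ccne2, with 0.38 and 0.34. Among the other genes tested, the 8 whose log2 CPM was most alike the mitosis score over the 10 libraries were Troap, Ccnf, Iqgap3, Racgap1, Shkbp1, Kif2c, Kif15 and Ncaph, with Pearson correlations from 0.94 to 0.99, and from 0.90 to 0.98 without vehicle library 2. Their log2 fold changes were all negative, from -0.60 to -0.11. The mitosis score was itself lower in MMP9 (mean -0.12 against 0.12), so choosing genes by likeness to it favours this sign, which is no separate result.

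Hair content also differed between the mice. Vehicle library 2, nearly free of hair keratins, had the highest mitosis score (0.66), and MMP9 library 1, equally free of them, had one of 0.20, above the other 4 MMP9 libraries. Vehicle library 3, with the highest hair score (3.29), had 0.18, and vehicle library 1, with a hair score of 0.93, had the lowest mitosis score. The 12 hair shaft genes summed to 10.3 to 5290 CPM in vehicle and 9.85 to 2130 CPM in MMP9, and none was at 0 in every library. Both hair-poor libraries also had the 2 highest basal epidermis scores, 0.35 and 0.22, and the 2 highest suprabasal scores, 0.585 and 0.421. Without both of them, 26 of 27 mitosis genes were negative with a median of -0.22, and 16 of 17 replication genes were positive with a median of 0.22. With the hair score as a covariate the medians were -0.35 and 0.07.

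**Figure D5:**
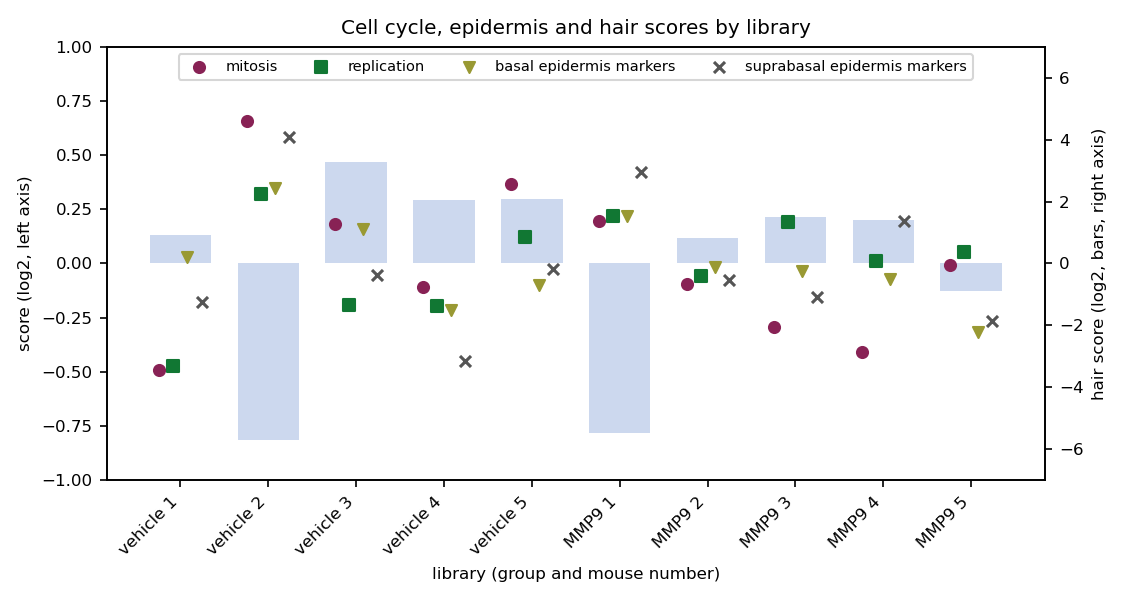
Mitosis, replication and epidermis scores (points, left axis, log2) and the hair score (bars, right axis, log2) of each library. Vehicle library 2 and MMP9 library 1 combine hair scores under -5 with the highest epidermis scores, and vehicle library 2 has the highest mitosis score.

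Markers of other cell types that could bring dividing cells were read beside the sets. The 6 T cell genes found in the table (of 8 listed) were positive in 6 of 6, and none was at 0 in every library. Their score was -0.267 to -0.017 in vehicle and 0.01 to 0.237 in MMP9, a narrow separation and the only one among the 12 marker scores. Their summed level was 259 to 403 CPM and 337 to 383 CPM, most of it Thy1, which fibroblasts and nerves also express. The T cell receptor chain gene Cd3g had 20.7 ± 2.40 CPM in vehicle mice and 28.4 ± 6.93 in MMP9 mice (SD, n = 5). MMP9 library 4 stood at 40.5 CPM and the other MMP9 libraries at 23.7 to 26.9 CPM. All 5 MMP9 values of Cd3g lay above all vehicle values, as in 0.426% of all genes, and its adjusted p in edgeR was 0.981. In the other direction, all 5 MMP9 values of the endothelial gene Plvap lay below all vehicle values in CPM, as in 0.138% of all genes. Plvap did so narrowly, with the same adjusted p in edgeR. The 7 macrophage and dendritic cell genes summed to 980 to 2584 CPM and 1771 to 2475 CPM, again with none at 0 in every library, and were positive in 4 of 7. The hair matrix and precortex genes were negative in 7 of 8 tested, with a median of -0.74. They summed to 88.8 to 434 CPM in vehicle and 99.2 to 188 CPM in MMP9, and none was at 0 in every library. The most abundant of them differed in sign, with Krt35 at -1.44 (SE 1.31) and Bmp4 at 0.22 (SE 0.12). Hair shaft genes were positive in 0 of 12, with a median of -1.25, but with wide errors. The most abundant of them, Krtap8-1 and Krtap3-1, had -0.87 (SE 1.39) and -1.61 (SE 1.29). The part of these cell types in the values of either set was not tested. The basal epidermis genes, the compartment of most interfollicular divisions, had a score of 0.05 ± 0.22 in vehicle and -0.04 ± 0.19 in MMP9 (SD, n = 5).

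Single libraries set the size of both medians but not their sign. Without vehicle library 2 the mitosis median was -0.15, with 23 of 27 genes negative, and the replication median was 0.24, with 17 of 17 positive. Then 4 replication genes and no mitosis gene had an unadjusted p under 0.05, where all genes gave 3.21%. Without vehicle library 1 the mitosis median was -0.42, with 8 mitosis genes at an unadjusted p under 0.05 (3.46% of all genes), and the replication median 0.04, with 10 of 17 positive. The replication median was also reduced without vehicle library 3 (0.08), vehicle library 4 (0.07) or MMP9 library 3 (0.08). In none of the 23 alternatives did a gene of the 44 pass, with adjusted p between 0.887 and 1 over all alternatives.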

How the data were processed

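Messenger RNA of cheek skin was measured in 5 vehicle and 5 MMP9 mice, each library 1 mouse per the labels. The authors deposited 1 table with, per library, estimated read counts, FPKM and TPM, per the file headers; 60.8% of the count values deposited are not whole. The submitters' processing notes name HISAT and GRCm39. For the quantifier, annotation, filters and versions the labels and headers state nothing. The estimated counts deposited by the authors were rounded to whole numbers, and the test was that of edgeR 4.0.16 (R 4.3.3), with TMM factors (0.843 to 1.05), filterByExpr by group (15250 of 18994 genes kept, with 99.95% of counts), a quasi-likelihood fit with treatment as the only term, and Benjamini-Hochberg adjustment over all genes tested. Levels are TMM-scaled CPM, as mean ± SD. Levels between genes use the authors' TPM, and transcript length was implied from the authors' counts and FPKM. Scores use log2 CPM with a prior count of 2. Intervals are at 95%.

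The 44 genes, the other lists and the comparisons were chosen with earlier results of these data known. Values in every library are given for the 5 genes of each set with the highest mean TPM, the 3 with the smallest p, and Mki67. From the other cell cycle genes, the 6 with the smallest p and 6 regulators (Foxm1, Mybl2, E2f1, Ccnd1, Cdkn1a and Cdkn1b) are named. The 8 genes most alike were ranked by Pearson correlation, and the printed promoters were chosen after their letters were seen. The fit was tested on simulated data. Alternatives were RLE and upper-quartile factors, 2 other filters, DESeq2 1.42.0, limma-voom and limma 3.58.1 on log2 TPM or FPKM, a block, a hair covariate, and leaving out libraries. Every 2 libraries differed far beyond sampling noise (lowest chi-square per gene 17.8). Of 12 marker lists, those not described as a whole are inner root sheath (median log2 fold change -1.26), suprabasal epidermis (0.07), sebaceous gland (-0.04), fibroblast (0.17), endothelium (-0.14), skeletal muscle (-0.10) and melanocyte (-0.55).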

Additional observations from a re-analysis of the deposited data

Results flagged for a closer look

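Of 94 groups of 5 mice examined (44 genes, 2 scores and their difference in 2 treatments), 2 held a library far from the other 4, where chance gives about 1 in 20. Ttk stood at 16.7 CPM in vehicle library 2, against 9.96 to 11.7 CPM in the other vehicle libraries. Ccne2 stood at 9.70 CPM in MMP9 library 4, against 6.07 to 6.94 CPM in the other MMP9 libraries. In TPM that library was instead the lowest of the MMP9 group for Ccne2, at 3.55 against 3.84 to 4.36.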

How the results depend on the processing

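Over 23 alternatives, the mitosis median kept its negative sign (-0.42 to -0.15) and the replication median its positive sign (0.04 to 0.24). These extremes came from leaving out vehicle library 1 or 2. DESeq2 called 1 gene of the table, which is none of the 44, and no other alternative called any. Whether the mouse numbers of the labels pair the mice cannot be settled from the values. Same-numbered deviations correlated over 0.1 in 3 of 5 numbers, with 0.478 for number 3 and -0.261 for number 1. Of the libraries, 2 of 5 vehicle and 1 of 5 MMP9 were most alike their own number. With the number as a replicate block, 0 genes passed (554 at an unadjusted p under 0.05, against 487), and the medians were -0.25 and 0.15. Signs turned for values near 0 and for some farther from it, such as Ccna2 (-0.19) and Birc5 (-0.21) in the main fit. The Cdkn1b log2 fold change was -0.001 with RLE factors, 0 without a filter, -0.003 with DESeq2, -0.06 on log2(TPM + 1), -0.062 on log2(TPM + 0.1), -0.015 on log2(FPKM + 1), -0.012 with the hair covariate, -0.025 without both hair-poor libraries and -0.004 without these and MMP9 library 4, the last chosen after seeing the data. Under these last 2 settings the Cdc6 log2 fold change was 0.057 and 0.101, and it was 0.067 with limma-voom and 0.026 with the replicate block. On log2(TPM + 1) and log2(TPM + 0.1) the Mcm7 log2 fold change was -0.037 and -0.04, and the Ccnd1 log2 fold change -0.016 and -0.017. Ttk had 0.045 without both hair-poor libraries, and Birc5 0.012 and Mcm7 -0.003 without the 3 libraries. Leaving out 1 library gave ranges across 0 for Ccna2 (-0.34 to 0.042), Cdk1 (-0.224 to 0.018), Ttk (-0.165 to 0.075), Birc5 (-0.374 to 0.002), Mcm7 (-0.019 to 0.06), Cdc6 (-0.259 to 0.122), Cdt1 (-0.012 to 0.218), Ccne1 (-0.042 to 0.226), Uhrf1 (-0.009 to 0.298), Rrm2 (-0.158 to 0.049), Tyms (-0.006 to 0.174), Tk1 (-0.053 to 0.316) and Cdkn1b (-0.038 to 0.059).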
